A study of Mus musculus with 16 samples.

Results

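The 9 genes described here carry the interferon signal from the cell surface to the nucleus. They are the receptor chains Ifnar1, Ifnar2, Ifngr1 and Ifngr2, the signal transducer Stat2, and the interferon regulatory factors (IRFs) Irf1, Irf3, Irf7 and Irf9. They were chosen by symbol from a table of raw counts with 54532 entries, and 9 of 9 were among the 17736 genes with enough counts to be tested. The counts came from bulk RNA sequencing of brain tissue in 16 libraries of female mice aged 9 months, from a study on STING, interferon, the oxysterol enzyme Ch25h and tau pathology. The libraries fell into 4 groups of 4: Ch25h+/+ Tau- (both copies of Ch25h and no tau transgene), Ch25h+/+ Tau+ (both copies with tau), Ch25h-/- Tau- (no Ch25h and no tau) and Ch25h-/- Tau+ (no Ch25h with tau). Tau+ was taken to mean that mice carried a tau transgene, and its promoter and line, the way Ch25h was removed and whether each library was a separate animal are not given in the sources used here. P-values therefore measure the spread between these libraries, which may be technical. No agent is named for any group.

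Type I interferons bind the pair Ifnar1 and Ifnar2, and interferon gamma binds the pair Ifngr1 and Ifngr2. Janus kinases attached to these chains then phosphorylate STAT proteins, and Stat2 and its DNA-binding partner Irf9 take part in a complex called ISGF3, which switches on interferon-stimulated genes through the interferon-stimulated response element (ISRE). Irf3 waits inactive in the cytoplasm until sensors such as STING act on it through the kinase Tbk1, Irf7 is itself an interferon-stimulated gene that amplifies type I interferon production, and Irf1 is induced by interferon gamma through a site called GAS. In the brain, microglia are a main site of this response.

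Depth was 15530352 to 25602500 counts per library. Ch25h had 5 to 30 counts in each Ch25h+/+ library and 0 counts in each Ch25h-/- library, where 0 allows up to 3 counts. Prnp, whose promoter drives the transgene of a common tau mouse line, lay between 707 and 838 counts-per-million (CPM) in the Tau- libraries and between 1410 and 1930 CPM in the Tau+ libraries. The tissue is labelled frontal cortex, while the series text says hippocampus. Summed cortex markers (5 genes) reached 589 to 806 CPM per library and summed hippocampus markers (6 genes) 33.3 to 71.1 CPM. In 7 of the 8 Ch25h-/- libraries a ribosomal RNA transcript took 2290 to 5680 CPM on total counts, against 111 to 475 CPM elsewhere. The rRNA-poor library of that genotype was Ch25h-/- Tau+ replicate 1, at 153 CPM, and beyond this library the rRNA class and loss of Ch25h cannot be told apart. Choroid plexus markers ranged from 14.9 to 2740 CPM.

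The stretches before the start sites of the genes that carry the later results were read from RefSeq (GRCm38.p6), whose windows run from 250 bases before the start to 50 after it and were found for 9 of 9 members. Each was searched on both strands for an ISRE core, which is GAAA and again GAAA after any 2 bases, and a GAS core, TTCNNNGAA, which do not overlap in these windows. Among 32851 such windows, 3.44% hold the ISRE core and 8.3% the GAS core. Stat2 is shown for its ISRE core, Irf1 and Ifnar2 for their GAS cores, and Irf7, the member with the largest change with tau, for a window in which neither set of letters was found. Capitals mark the match, and each sequence ends just before the most upstream annotated start.
Stat2, chr10:128270248-128270497, plus strand: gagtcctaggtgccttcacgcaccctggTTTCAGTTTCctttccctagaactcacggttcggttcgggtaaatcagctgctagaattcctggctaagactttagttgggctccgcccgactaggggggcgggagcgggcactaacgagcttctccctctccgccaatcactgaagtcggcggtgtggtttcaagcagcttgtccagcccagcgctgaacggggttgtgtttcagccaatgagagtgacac
Irf1, chr11:53769764-53770013, plus strand: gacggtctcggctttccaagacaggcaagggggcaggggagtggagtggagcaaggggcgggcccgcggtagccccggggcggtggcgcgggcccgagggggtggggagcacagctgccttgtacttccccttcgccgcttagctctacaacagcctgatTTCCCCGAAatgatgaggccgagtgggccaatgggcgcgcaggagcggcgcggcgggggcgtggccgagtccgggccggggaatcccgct
Ifnar2, chr16:91372533-91372782, plus strand: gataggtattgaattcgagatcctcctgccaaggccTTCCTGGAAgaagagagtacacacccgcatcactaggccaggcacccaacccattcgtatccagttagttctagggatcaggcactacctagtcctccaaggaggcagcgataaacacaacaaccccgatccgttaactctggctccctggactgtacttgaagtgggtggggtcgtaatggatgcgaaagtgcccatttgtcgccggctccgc
Irf7, chr7:141266482-141266674, minus strand: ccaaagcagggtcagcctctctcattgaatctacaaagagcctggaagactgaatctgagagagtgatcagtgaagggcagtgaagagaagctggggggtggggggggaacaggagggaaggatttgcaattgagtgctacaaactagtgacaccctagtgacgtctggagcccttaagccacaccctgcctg
The match begins 222 bases before the start in Stat2, 90 before it in Irf1 and 214 before it in Ifnar2, and the Stat2 match lies on the opposite strand. Ifnar1 also holds a GAS core, 5 bases before its start, and the windows of Ifngr1, Ifngr2, Irf3, Irf7 and Irf9 hold neither motif. A match describes letters and does not show that a factor binds, and no match says only that these letters are absent from the window.

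Levels can be compared between genes only per exon length, here as CPM per kb of exon in the GENCODE annotation. That length joins the exons of all annotated transcripts of a gene. For Irf7 it was 3776 bases, the whole gene with its introns, so its level per kb may be too low. The order below depends on this choice of length. Over the 16 libraries the interferon gamma receptor chain Ifngr2 had the highest level, 10.8 ± 0.943 CPM per kb (SD over libraries), followed by Ifnar1 at 9.03 ± 0.732. Irf3 (6.52 ± 1.11), Stat2 (5.8 ± 0.542), Ifngr1 (5.09 ± 0.641) and Ifnar2 (4.07 ± 0.69 CPM per kb) formed the middle of the order. Irf9 (2.69 ± 0.595), Irf1 (2.05 ± 0.37) and Irf7 (0.993 ± 0.725 CPM per kb) stood at its end. The ranges of all neighbours in this order overlapped. Ifnar1 exceeded Irf3, and Ifnar2 exceeded Irf9, in 16 of 16 libraries, whereas Irf3 exceeded Stat2 in 12 of them. Within a receptor pair, the chains were unequal, with Ifnar1 above Ifnar2 and Ifngr2 above Ifngr1.

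**Figure D1:**
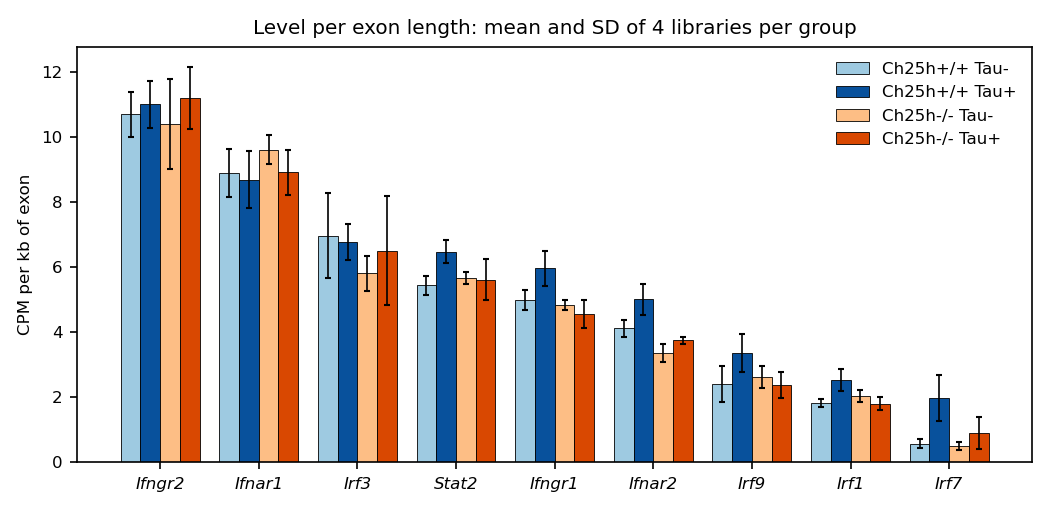
Mean level of each gene in CPM per kb of exon (bars, with SD of 4 libraries) in the 4 groups, ordered by the mean over 16 libraries. Ifngr2 stands highest at 10.8 CPM per kb and Irf7 lowest at 0.993, and the Irf7 bar of Ch25h+/+ Tau+ (1.99 CPM per kb) rises above those of the other groups.

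With Ch25h present, tau went with a rise of Irf7 that passed the test, 3.45-fold, while the other 8 members stayed between a log2 fold change of -0.04 and 0.49 and did not pass. That is 1 of 9 members, in a comparison where 1.56% of all genes tested passed (277 of 17736, edgeR quasi-likelihood F test with Benjamini-Hochberg adjustment over all genes, threshold 0.05). Of all genes, 1.47% passed as higher. At an unadjusted p under 0.05 the count was 6 of 9 members, against 9.38% of all genes. The 4 Tau+ libraries lay wholly above the 4 Tau- libraries for Ifnar2, Stat2, Irf1 and Irf7, and groups that did not overlap in the upward direction made up 3.89% of all genes. The median log2 fold change was 0.26 over the 9 members and -0.01 over all genes. In bulk tissue, fewer cells of a type and less RNA per cell cannot be told apart.

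Without Ch25h, tau brought 0 of 9 members past the threshold in edgeR, and 0 with DESeq2 and with limma-voom. In that comparison 0.0395% of all genes passed. At an unadjusted p under 0.05 the count was 1 of 9 members (Irf7), against 3.68% of all genes. No member had groups that did not overlap, against 2.14% of all genes, and the members' median log2 fold change was -0.02.

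Among the Tau+ libraries, the Ch25h-/- group had lower Ifnar2, Ifngr1, Irf1 and Irf7 than the Ch25h+/+ group. These were 4 of 9 members past the threshold of the same edgeR test, in a comparison where 3.55% of all genes passed and 2.4% passed as lower. The Ch25h-/- libraries lay wholly below the Ch25h+/+ libraries for Ifnar2, Ifngr1 and Irf1, as they did for 5.74% of all genes, and overlapped for Irf7. At an unadjusted p under 0.05 the count was 6 of 9 members, against 23.9% of all genes. The median log2 fold change was -0.39 over the 9 members and 0 over all genes. All 4 calls were lost in a fit of only the 8 libraries compared (adjusted p = 0.109 to 0.139 in edgeR) and with a term for the rRNA class (adjusted p = 0.768 to 0.976), and 1 call (Irf7) was left with no filter on low counts. The log2 fold changes of Ifnar2, Ifngr1, Irf1 and Irf7 were -0.41, -0.38, -0.5 and -1.15 with only the 8 libraries, and -0.42, -0.33, -0.63 and -1.43 with the class term. With that term the loss effect in Tau+ rests on 1 rRNA-poor Ch25h-/- library, Ch25h-/- Tau+ replicate 1, here and for every gene below, and a call lost under it does not show a smaller difference. No call was left without Ch25h+/+ Tau+ replicate 1, Ch25h+/+ Tau+ replicate 4, Ch25h-/- Tau+ replicate 3 or Ch25h-/- Tau+ replicate 4, and 2 (Irf1 and Irf7) were left without Ch25h-/- Tau+ replicate 2. Without Ch25h-/- Tau+ replicate 1 the call of Irf7 was lost (edgeR adjusted p = 0.0503).

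**Figure D2:**
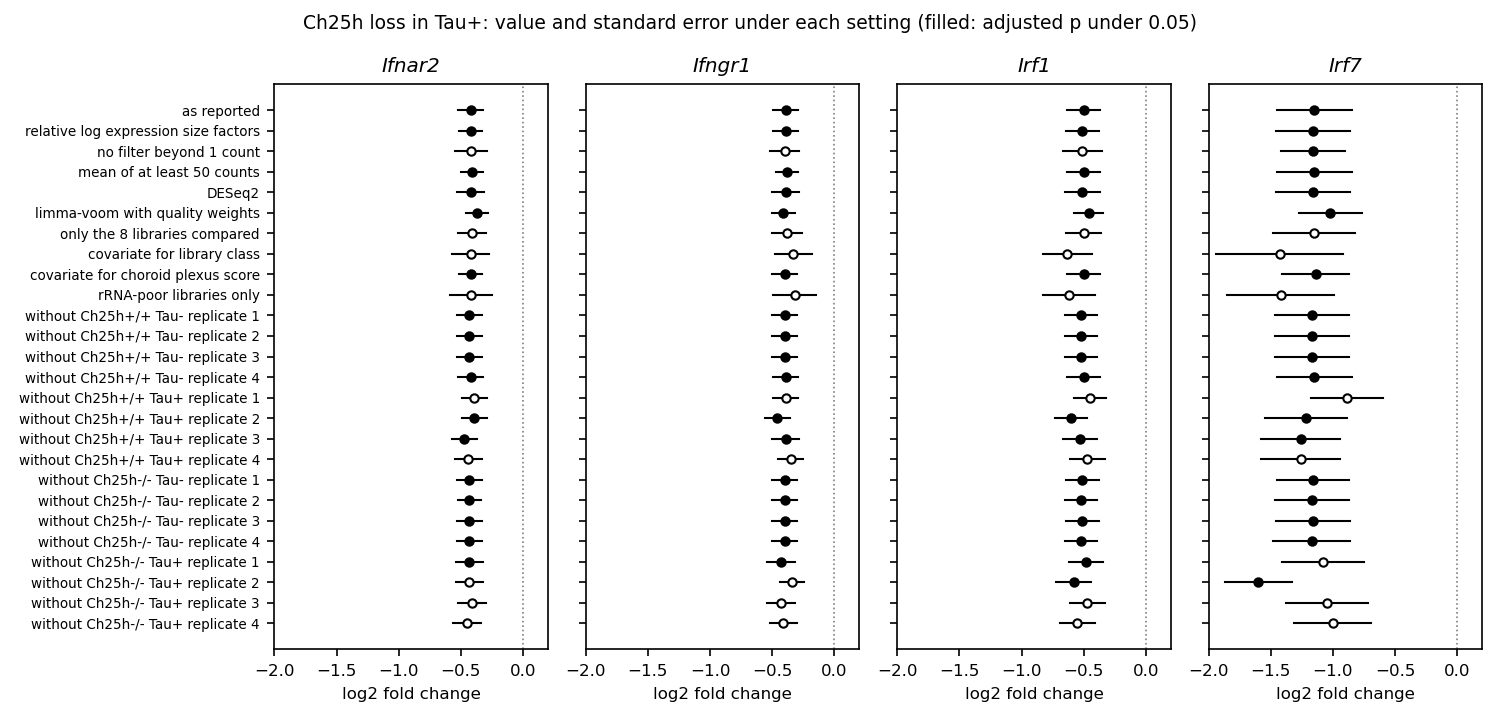
Log2 fold change and standard error of Ifnar2, Ifngr1, Irf1 and Irf7 for Ch25h loss in Tau+ under each processing alternative, with filled points for an adjusted p under 0.05. All points lie left of 0, and the open points show the settings in which the call was lost, such as the fit of only the 8 libraries compared (adjusted p = 0.109 to 0.139 in edgeR).

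Among the Tau- libraries, loss of Ch25h gave 0 of 9 members past the threshold in edgeR, where 1.03% of all genes passed, and 0 with DESeq2 and with limma-voom. At an unadjusted p under 0.05 the count was 1 of 9, Ifnar2, against 20.9% of all genes. Ifnar2 was also the member whose groups did not overlap, in a direction shared by 8.58% of all genes. The interaction, which tests whether the tau effect differs between the Ch25h genotypes, gave 0 of 9 members past the threshold in edgeR (0.0338% of all genes), 0 with DESeq2 and 0 with limma-voom. At an unadjusted p under 0.05 it gave 5 of 9 members, Ifngr1, Stat2, Irf1, Irf7 and Irf9, against 4.13% of all genes, and each of these 5 had a negative value. The tau effect with Ch25h and the loss effect with tau share the Ch25h+/+ Tau+ libraries, so the values of a gene in these comparisons are not independent.

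**Figure D3:**
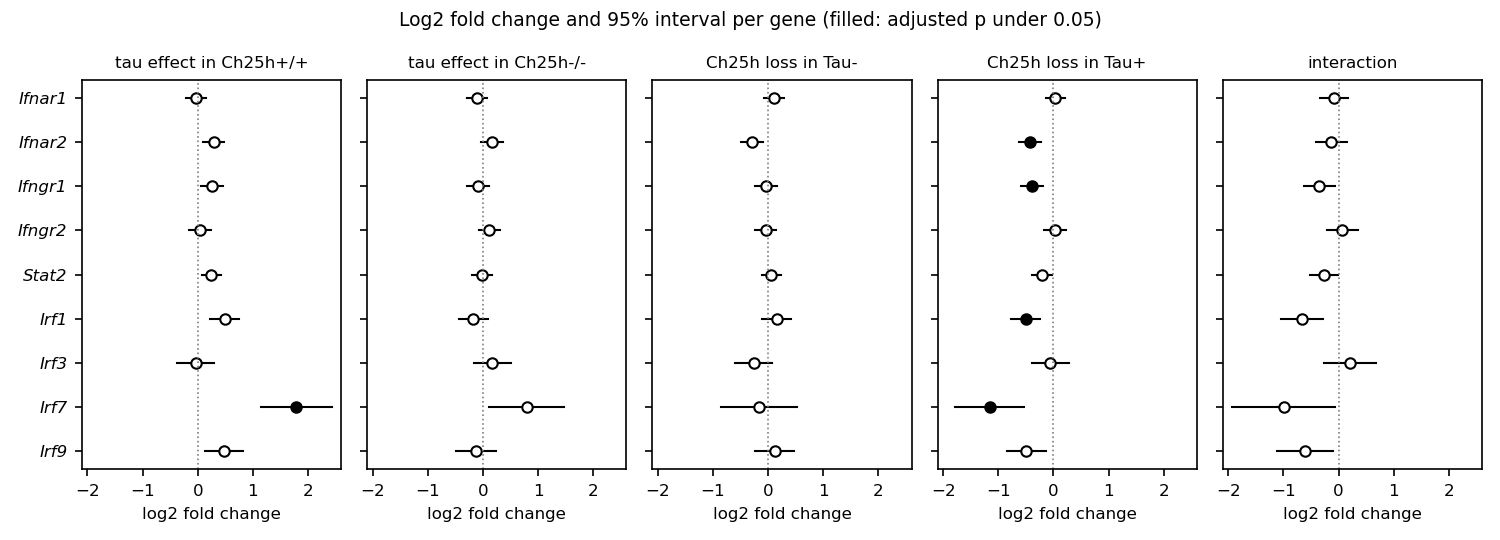
Log2 fold change (points) and 95% interval (lines) of each gene in the 5 comparisons, with filled points for an adjusted p under 0.05. Irf7 is filled on the right in the tau effect in Ch25h+/+ (1.79), and Ifnar2, Ifngr1, Irf1 and Irf7 are filled on the left in Ch25h loss in Tau+ (-0.42, -0.39, -0.5 and -1.15).

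The type I receptor chains lie near each other on chromosome 16 (GRCm38), Ifnar2 at 91372783 to 91405589 and Ifnar1 at 91485238 to 91507441, both on the plus strand and protein-coding. Ifnar2, the chain that binds interferon with high affinity, read 12.7, 14.8, 13.7 and 13.7 CPM in Ch25h+/+ Tau- and 17.8, 18.3, 14.8 and 16.1 CPM in Ch25h+/+ Tau+. It read 11.2, 12.5, 10.4 and 10.9 CPM in Ch25h-/- Tau- and 12.5, 12.5, 12.1 and 13 CPM in Ch25h-/- Tau+. Ch25h+/+ Tau+ was thus the highest group, touching Ch25h+/+ Tau- at 14.8 CPM to 3 digits without crossing it, and each Ch25h-/- group lay below its Ch25h+/+ counterpart. Ifnar2 fell by 0.42 ± 0.1 (log2, SE) with Ch25h loss in Tau+, to 0.749 of the Ch25h+/+ level (edgeR adjusted p = 0.0278). In Tau- the difference did not pass, at -0.29 with a 95% interval of -0.49 to -0.09 (edgeR adjusted p = 0.108). Its tau effect in Ch25h+/+ was 0.29, interval 0.09 to 0.48 (edgeR adjusted p = 0.21). A predicted gene, Gm21970, shares 315 bases with its exons and had 0 counts in all libraries.

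Ifnar1, the other type I chain, passed in no comparison. It read 52.8 ± 4.42, 51.6 ± 5.16, 57.1 ± 2.69 and 52.9 ± 4.18 CPM (SD, n = 4), in the order of groups Ch25h+/+ Tau-, Ch25h+/+ with tau, Ch25h-/- Tau- and Ch25h-/- with tau. All 4 groups overlapped, and its 95% interval was -0.21 to 0.15 for tau in Ch25h+/+ and -0.14 to 0.21 for Ch25h loss in Tau+, on the log2 scale. Its partner chain Ifnar2 passed the test in Tau+, and the difference between the chains was not tested.

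Ifngr1, the chain that binds interferon gamma (chromosome 10, 19591949 to 19610229), read 13.4, 13.6, 14.8 and 15.1 CPM in Ch25h+/+ Tau- and 17.2, 15, 17 and 18.7 CPM in Ch25h+/+ Tau+. In Ch25h-/- it read 14.1, 14.3, 13.3 and 13.7 CPM without tau and 13.5, 11.2, 13.8 and 13.3 CPM with tau. Ch25h+/+ Tau+ was again the highest group, and its lowest library, at 15 CPM, stood under the highest Ch25h+/+ Tau- library at 15.1 CPM. With tau present, Ifngr1 was lower after Ch25h loss by a log2 fold change of -0.39 ± 0.1 (SE), 0.765 of the Ch25h+/+ level (edgeR adjusted p = 0.0352). The tau effect in Ch25h+/+ was 0.26, interval 0.06 to 0.46 (edgeR adjusted p = 0.31). Ifngr2, the signalling partner chain, lies beside Ifnar1 on chromosome 16 (91547072 to 91565623) and had group means of 40.2 ± 2.59, 41.4 ± 2.76, 39 ± 5.23 and 42.2 ± 3.61 CPM (SD, n = 4) in the same order of groups. Its groups overlapped throughout, with intervals of -0.15 to 0.24 for tau in Ch25h+/+ and -0.17 to 0.22 for Ch25h loss in Tau+. In each receptor pair the chain with the lower level per kb was the one that passed the test in Tau+.

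Stat2 (chromosome 10, 128270559 to 128292849), the transcription-activating part of ISGF3, read 33.9, 32.3, 29.9 and 33.1 CPM in Ch25h+/+ Tau- and 41.2, 38.4, 37.4 and 36.5 CPM in Ch25h+/+ Tau+. The Ch25h-/- libraries read 34, 33.7, 34.6 and 32.1 CPM without tau and 35.1, 37.6, 30.6 and 29.8 CPM with tau. The 4 Ch25h+/+ Tau+ libraries lay above all Tau- libraries of either genotype and overlapped Ch25h-/- Tau+. The tau effect in Ch25h+/+ was 0.25, interval 0.08 to 0.42, and did not pass (edgeR adjusted p = 0.21). Ch25h loss in Tau+ gave -0.21, interval -0.38 to -0.03 (edgeR adjusted p = 0.139).

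Irf9 (chromosome 14, 55603571 to 55610030), which gives ISGF3 its DNA contact, varied more between libraries. Its mean went from 13 ± 3.05 CPM without tau to 18.1 ± 3.08 with tau in Ch25h+/+, and from 14.1 ± 1.86 to 12.8 ± 2.18 CPM in Ch25h-/- (SD, n = 4). The groups overlapped in every comparison. The tau effect in Ch25h+/+ was 0.48 with an interval of 0.13 to 0.83 (edgeR adjusted p = 0.26), and Ch25h loss in Tau+ was -0.49, interval -0.84 to -0.14 (edgeR adjusted p = 0.0967). Without Ch25h-/- Tau+ replicate 1, whose 16.1 CPM stood above the other 3 libraries at 11.6 to 11.9, the loss effect was -0.64 and passed (edgeR adjusted p = 0.0315). Over the 16 fits that left out 1 library the loss effect ran from -0.64 to -0.4, and over the 9 other alternatives from -0.5 to -0.16. Irf9 shares 123 exon bases with Rnf31 on the same strand, so reads there are uncertain, and Rnf31 had up to 1136 counts in a library.

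Irf1 (chromosome 11, 53770014 to 53778374), a transcription factor of the interferon gamma response, read 7.11, 6.67, 7.85 and 7.3 CPM in Ch25h+/+ Tau- and 11.4, 8.57, 9.56 and 11 CPM in Ch25h+/+ Tau+. It read 8.66, 8.17, 8.43 and 7.02 CPM in Ch25h-/- Tau- and 6.57, 8.05, 6.41 and 7.61 CPM in Ch25h-/- Tau+. The Ch25h+/+ Tau+ group lay above both other groups it was compared with, with no overlap, while the means of Ch25h-/- ran the other way, from 8.07 ± 0.728 CPM without tau to 7.16 ± 0.796 CPM with tau (SD, n = 4). The difference with tau in Ch25h+/+ was 1.4-fold (log2 0.49 ± 0.13, SE, higher in 4 of 4 libraries) and missed the threshold (edgeR adjusted p = 0.0612). It passed with DESeq2 (adjusted p = 0.0222), with limma-voom (adjusted p = 0.0225) and in edgeR without Ch25h+/+ Tau+ replicate 2 (adjusted p = 0.0314), and the adjusted p over the 9 alternatives ranged from 0.0222 to 0.169. With Ch25h loss in Tau+ Irf1 fell to 0.705 of the Ch25h+/+ level (log2 -0.5 ± 0.13, SE, edgeR adjusted p = 0.037). Of the 9 members Irf1 had the smallest interaction p, with a value of -0.66, interval -1.04 to -0.29, that did not pass (edgeR adjusted p = 0.334).

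Irf3 (chromosome 7, 44997648 to 45002848), the factor that STING signalling activates through phosphorylation rather than transcription, had 24 ± 4.51, 23.3 ± 1.94, 20 ± 1.83 and 22.4 ± 5.74 CPM (SD, n = 4) in the same order of groups as above. The groups overlapped in every comparison. Single libraries ran from 16.1 to 29.5 CPM, both within Ch25h-/- Tau+. The 29.5 CPM was that of Ch25h-/- Tau+ replicate 1, the rRNA-poor library of that genotype. The interval of the tau effect in Ch25h+/+ was -0.37 to 0.29 and that of Ch25h loss in Tau+ -0.39 to 0.28. Over the alternatives the value of Ch25h loss ran from -0.12 to 0.34 in Tau+ and from -0.28 to 0.29 in Tau-.

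Irf7 (chromosome 7, 141262706 to 141266481, minus strand) showed the largest differences of the 9 in each comparison except Ch25h loss in Tau-, where it was at -0.16 against -0.29 for Ifnar2. It read 1.85, 2.68, 2.59 and 1.56 CPM in Ch25h+/+ Tau- (31 to 60 counts) and 11.4, 6.81, 5.85 and 5.97 CPM in Ch25h+/+ Tau+ (126 to 186 counts). It read 2.65, 1.65, 1.69 and 1.78 CPM in Ch25h-/- Tau- (28 to 44 counts) and 2.77, 6.1, 2.55 and 2.12 CPM in Ch25h-/- Tau+ (34 to 94 counts). All Ch25h+/+ Tau+ libraries stood above both Tau- groups, and replicate 2 of Ch25h-/- Tau+ reached the Ch25h+/+ Tau+ range while the other 3 libraries of its group lay at 2.12 to 2.77 CPM. The log2 fold change with tau in Ch25h+/+ was 1.79 ± 0.31 (SE), interval 1.14 to 2.43 (edgeR adjusted p = 0.0029), and it passed in all 9 alternatives and in all 16 fits that left out 1 library. In Ch25h-/- the tau effect was 0.79, interval 0.11 to 1.47 (edgeR adjusted p = 1), and 0.36 without replicate 2 of Ch25h-/- Tau+. With Ch25h loss in Tau+ Irf7 fell to 0.449 of the Ch25h+/+ level (log2 -1.15 ± 0.3, SE, edgeR adjusted p = 0.0424), and the value lay between -1.6 and -0.89 when single libraries were left out. The interaction was -0.99, interval -1.93 to -0.06 (edgeR adjusted p = 1), so the difference between the tau effects of the genotypes did not pass. Irf7 shares 45 exon bases with Phrf1 on the opposite strand, and whether reads were assigned by strand is not given in the sources used here.

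**Figure D4:**
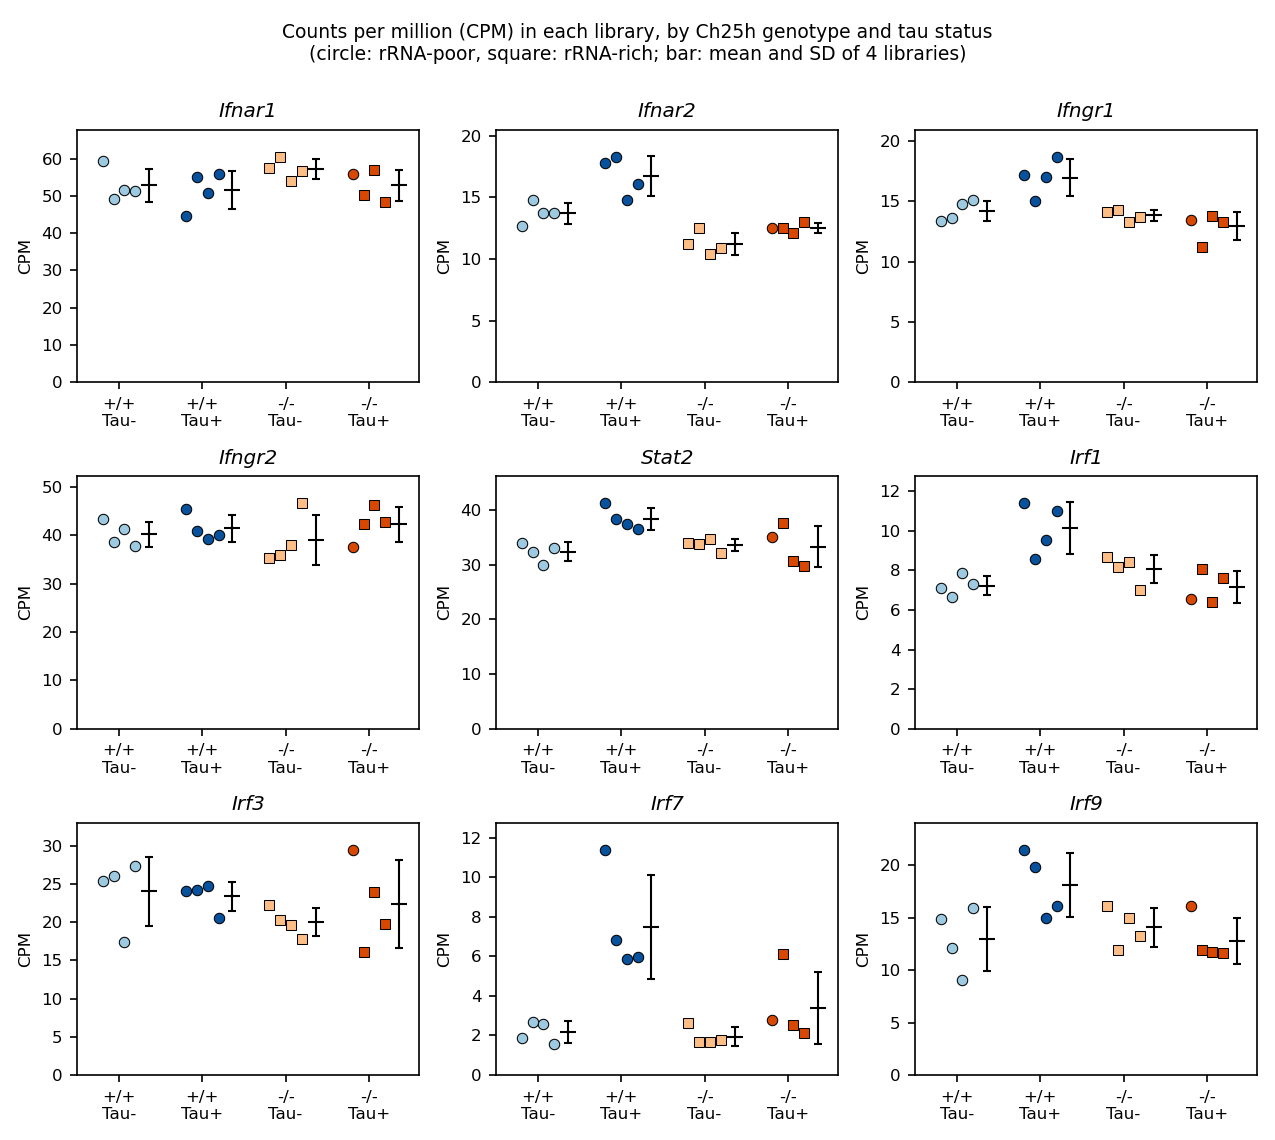
CPM of each gene in each of the 16 libraries (circles rRNA-poor, squares rRNA-rich), with the mean and SD of 4 libraries per group beside them. In the Irf7 panel the 4 Ch25h+/+ Tau+ libraries sit at 5.85 to 11.4 CPM and 1 Ch25h-/- Tau+ library, at 6.1 CPM, sits among them, and in the Ifnar1 panel all groups overlap.

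The rest of the pathway was read in the same fit from lists that follow the order of the signal. These lists were chosen with earlier results of these data known, so their counts and medians are descriptions and not independent support. None of the 21 interferon ligand genes had enough counts to be tested. Of these, 15, Ifnb1 and Ifng among them, had 0 counts in every library, and the other 6 had at most 2 counts, each in 1 library. Interferon transcripts were thus at or near 0 at this depth, where a count of 0 allows up to 3 counts per library. Neither type III receptor chain, Ifnlr1 or Il10rb, passed in any comparison in edgeR, nor did any of the 4 Janus kinases, Jak1, Jak2, Jak3 and Tyk2, whose log2 fold changes with tau in Ch25h+/+ lay between -0.16 and 0.14. Of the 7 tested kinases and adaptors that activate IRFs none passed in any comparison in edgeR, and 1 was lower with Ch25h loss in Tau+ with DESeq2. Tmem173, the gene of STING, had 3.21 ± 0.656 CPM in Ch25h+/+ Tau- and 4.92 ± 0.495 CPM in Ch25h+/+ Tau+ (SD, n = 4), a log2 fold change of 0.61 that did not pass (edgeR adjusted p = 0.219).

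Among other IRF genes, Irf5 and Irf8, which are expressed in microglia, rose with tau in Ch25h+/+ by 1.62-fold and 2.08-fold and were lower with Ch25h loss in Tau+, at 0.542 and 0.515 of the Ch25h+/+ level (edgeR adjusted p = 0.0164, 0.00225, 0.00402 and 0.0078 in that order). With a term for the rRNA class both lower calls were lost (edgeR adjusted p = 0.581 and 0.606), at log2 fold changes of -0.84 and -0.99 against -0.88 and -0.96 without it. The rise of Irf5 did not pass with only the 8 libraries compared, nor without Ch25h+/+ Tau- replicate 1, Ch25h+/+ Tau- replicate 3 or Ch25h+/+ Tau+ replicate 4 (edgeR adjusted p = 0.0591 to 0.0898), at log2 fold changes of 0.62 to 0.7 against 0.69 in the fit of 16 libraries. Irf2 and Irf4 did not pass, with log2 fold changes of -0.09 and 0.41 for tau in Ch25h+/+. Irf8 went from 6.28 ± 1.15 to 13.1 ± 2.39 CPM with tau in Ch25h+/+ and from 5.69 ± 0.717 to 6.75 ± 1.47 CPM in Ch25h-/- (SD, n = 4).

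Of 13 negative regulators, 2 rose with tau in Ch25h+/+ and were lower with Ch25h loss in Tau+, against 1.47% and 2.4% of all genes. Usp18, which cleaves Isg15 from proteins and binds Ifnar2 to dampen signalling, rose 3.7-fold, from 0.955 ± 0.165 to 3.58 ± 1.63 CPM (SD, n = 4), and Ch25h loss in Tau+ brought it to 0.413 of the Ch25h+/+ level (edgeR adjusted p = 0.00185 and 0.0297). Ptpn6, a phosphatase of blood-lineage cells, rose 2.06-fold and was at 0.519 with Ch25h loss (edgeR adjusted p = 0.00428 and 0.0132). Both rises passed in all alternatives that gave a value, and both lower calls were lost with only the 8 libraries compared (edgeR adjusted p = 0.108 and 0.0508) and with a term for the rRNA class (0.789 and 0.858). The log2 fold change of Usp18 was -1.28 in the fit of 16 libraries, -1.27 with only the 8 and -1.5 with the class term, and that of Ptpn6 was -0.95, -0.94 and -0.86. The lower call of Usp18 was also lost without Ch25h+/+ Tau+ replicate 1 or 4 or Ch25h-/- Tau+ replicate 3 or 4, and that of Ptpn6 without Ch25h+/+ Tau+ replicate 4. The median of the list was -0.02 for tau in Ch25h+/+, against -0.01 for all genes.

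For tau in Ch25h+/+ and for Ch25h loss in Tau+, the medians of the interferon target genes were farther from 0 than those of the lists above. Of 28 type I interferon targets tested, 17 rose with tau in Ch25h+/+ with a median log2 fold change of 1.52, and 8 were lower with Ch25h loss in Tau+, median -0.92. Of all genes tested, 1.47% passed as higher with tau in Ch25h+/+ and 2.4% as lower with Ch25h loss in Tau+. Ifi27l2a (2.59), Mx1 (2.54), Ifit1 (2.06) and Ifi44 (1.97) had the largest rises, and Slfn2 (-1.28), Bst2 (-1.27), Ifit3 (-1.25) and Oasl2 (-1.19) the largest falls, among called genes whose mean log2 CPM was 0 or more. The rise of Ifi44 was not called with only the 8 libraries compared (1.98, edgeR adjusted p = 0.115), nor without Ch25h+/+ Tau- replicate 1, 3 or 4, Ch25h+/+ Tau+ replicate 1 or Ch25h-/- Tau+ replicate 3 or 4 (values of 1.46 to 2.13, adjusted p = 0.051 to 0.158). Of the falls, that of Bst2 passed in 16 of 16 fits that left out 1 library, Ifit3 in 12, Slfn2 in 11 and Oasl2 in 8. The call of Oasl2 was lost without Ch25h+/+ Tau- replicate 1, 2 or 3, Ch25h+/+ Tau+ replicate 1 or 3, Ch25h-/- Tau- replicate 2 or Ch25h-/- Tau+ replicate 3 or 4 (values of -1.22 to -0.86, edgeR adjusted p = 0.0512 to 0.14). Slfn2 and Ifit3 both lost theirs without Ch25h+/+ Tau+ replicate 1 or 4 or Ch25h-/- Tau+ replicate 3 or 4, and Slfn2 also without Ch25h-/- Tau+ replicate 2. Of 20 interferon gamma targets, 16 rose with tau in Ch25h+/+, median 1.06, and 14 were lower with Ch25h loss in Tau+, median -1.07. They were led by the antigen presentation genes Cd74 (3.91 and -3.08), H2-Aa (3.52 and -3.16) and H2-Ab1 (3.47 and -2.93). In Ch25h-/- the tau effect passed in edgeR for 0 genes of either list, with medians of 0.42 and 0.13, and for 1 type I target with DESeq2. The interaction passed for 2 of these targets, Cd74 (-3.41, edgeR adjusted p = 0.0405) and the MHC class I gene H2-D1 (-0.84, edgeR adjusted p = 0.0222), and with a term for the rRNA class neither passed, at -3.17 and -0.82 (adjusted p = 0.0953 and 0.0565). Cd74 passed in 3 and H2-D1 in 13 of the 16 fits that left out 1 library. With a term for the rRNA class the lower calls with Ch25h loss in Tau+ numbered 0 instead of 8 for the type I targets and 3 instead of 14 for the interferon gamma targets, and with only the 8 libraries compared 2 and 9. Under the class term the log2 fold changes of the named genes that lost their call were -1.6 for Bst2, -1.28 for Ifit3, -1.25 for Slfn2, -1.3 for Oasl2, -4.01 for Cd74, -4.33 for H2-Aa and -3.22 for H2-Ab1. The type I count was 2 or 3 without Ch25h+/+ Tau+ replicate 1 or 4 or Ch25h-/- Tau+ replicate 3 or 4, and the interferon gamma count was 9 without Ch25h-/- Tau+ replicate 3. The Ifit genes lie beside Ch25h in the genome.

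**Figure D5:**
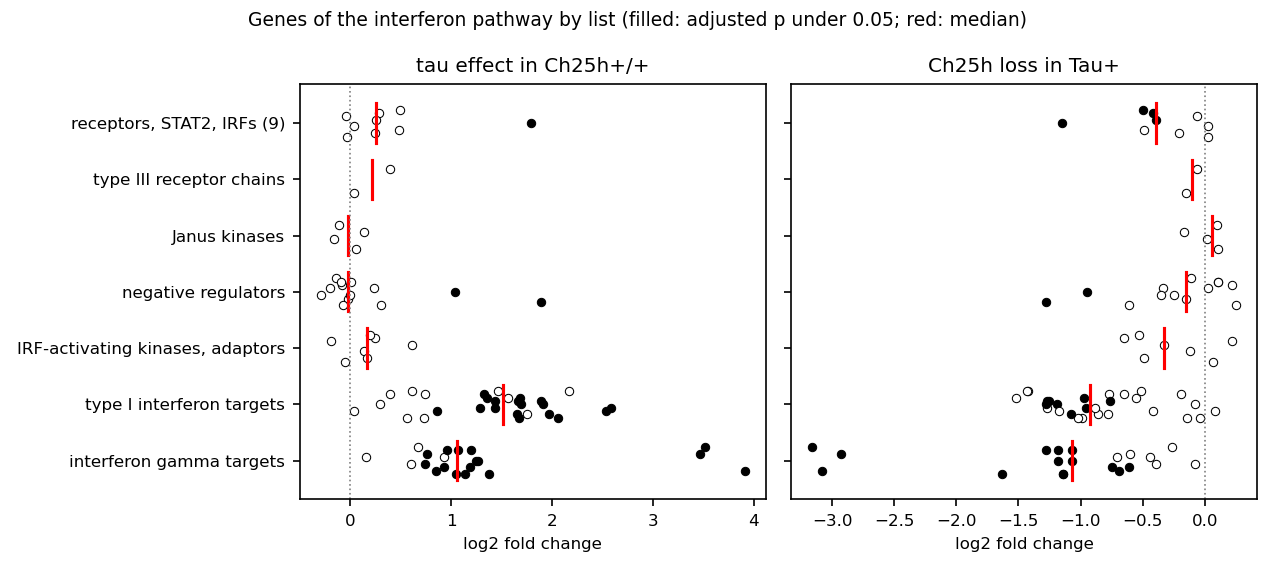
Log2 fold change of each tested gene of 7 groups for the tau effect in Ch25h+/+ (left) and Ch25h loss in Tau+ (right), with filled points for an adjusted p under 0.05 and red lines for medians. The Janus kinases stay near 0, with a median of -0.03 on the left, while the type I interferon targets have medians of 1.52 and -0.92.

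Microglial markers moved in the same comparisons. The sum of 8 microglia markers was 297 to 322 CPM in Ch25h+/+ without tau, 455 to 572 CPM in Ch25h+/+ with tau, 295 to 332 in Ch25h-/- without tau and 289 to 359 in Ch25h-/- with tau. Of these 8 genes, 4 rose with tau in Ch25h+/+, 0 with tau in Ch25h-/-, and 5 were lower with Ch25h loss in Tau+ (edgeR). Among all genes tested, 1.47% passed as higher with tau in Ch25h+/+ and 2.4% as lower with Ch25h loss in Tau+. In the interaction 1 of the 8 passed, the complement gene C1qa (-1.26, edgeR adjusted p = 0.0222), named after its values were seen. The count was also 1 with a term for the rRNA class, and 0 without Ch25h+/+ Tau- replicate 1, 2 or 3, Ch25h-/- Tau- replicate 1 or 4 or Ch25h-/- Tau+ replicate 3 or 4. Of 4 activated microglia markers, 4 rose with tau in Ch25h+/+ and 4 were lower with Ch25h loss in Tau+, and their sum was 44.4 to 52.3, 69.8 to 127, 45.4 to 54.6 and 49.7 to 60 CPM in the same order of groups. Most of that sum was Axl, and the other 3 genes (Clec7a, Cst7 and Itgax) summed to 0.216 to 0.831, 13.5 to 40.9, 0.294 to 0.842 and 0.851 to 9.15 CPM. The list's median log2 fold change was 5.48 for tau in Ch25h+/+ and 2.18 for tau in Ch25h-/-, where 0 of 4 passed in edgeR, and with 0 or 1 counts in some libraries these fitted values are imprecise. With a term for the rRNA class the lower calls with Ch25h loss in Tau+ numbered 1 of the 8 microglia markers and 0 of the 4 activated ones, and with only the 8 libraries compared 2 and 2. The counts were also 2 and 2 without Ch25h+/+ Tau+ replicate 4 or Ch25h-/- Tau+ replicate 3, and they were 3 microglia markers without Ch25h-/- Tau+ replicate 2 and 2 activated markers without Ch25h-/- Tau+ replicate 4. T cell markers summed to 0.541 to 2.93 CPM per library and neutrophil markers to at most 1.43 CPM. Of 4 astrocyte markers 1 rose with tau in Ch25h+/+ and was lower with Ch25h loss in Tau+, and their sum was 2340 to 2690, 2220 to 4220, 2690 to 3250 and 2800 to 3430 CPM in the same order of groups. This was Gfap, a filament protein gene of reactive astrocytes, named after its values were seen, with log2 fold changes of 2.46 and -1.96 (edgeR adjusted p = 6.13e-05 and 0.000767). None of the 4 neuron, 3 oligodendrocyte and 3 endothelial markers passed in any comparison in edgeR. Border macrophage markers summed to 3.72 to 14.8 CPM, with 0 of 4 past the threshold in edgeR in any comparison. No gene of these lists was at 0 in all libraries, and the part of the microglial and astrocyte markers in the results of the receptors, Stat2 and the IRFs was not tested.

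The genes most like each member, of which up to 3 are given, were those with the highest Pearson r of log2(CPM + 0.5) over the 16 libraries, out of 14480 genes. These points share libraries, depth and the group differences, so r was also taken after removal of the group means. Irf7 was most like Ifit1 (0.969, and 0.924 within groups), Ifit3 (0.966, 0.889) and Ifit3b (0.954, 0.815), which are interferon-induced genes. Irf1 was most like the leukocyte genes Cd300c2 (0.935, 0.812), Cd53 (0.9, 0.681) and Pld4 (0.865, 0.751). Ifngr1 was most like Crip1 (0.9, 0.747), Lsp1 (0.897, 0.619) and Spi1 (0.89, 0.737), the last a master regulator of myeloid cells. Ifnar2 was most like H2-T23 (0.911, 0.61), Gm13050 (0.911, 0.743) and Npc2 (0.903, 0.486). Stat2 was most like Cd86 (0.888, 0.755) and Wnt5b (0.856, 0.675).

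Irf9 was most like Sat1 (0.794, 0.668), Stat2 (0.778, 0.584) and Phyhd1 (0.76, 0.74). Irf3 was most like Ints1 (0.875, 0.863) and Tmem86b (0.857, 0.841), whose r hardly moved when group means were removed. Ifngr2 was most like Anxa7 (0.788, 0.849), C1d and Smim8, and Ifnar1 was most like Parg (0.779, 0.769), Ceacam1 and 1700048O20Rik. Among the members themselves, Stat2 with Irf7 had the highest r (0.79, and 0.595 within groups), and the partner chains were not alike, with r of -0.459 for Ifnar1 with Ifnar2 and -0.0345 for Ifngr1 with Ifngr2.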

How the data were processed

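The authors deposited whole-number counts per gene and library for 16 libraries. Reads were aligned with STAR 2.7 to GRCm38 (mm10), per the submitters' processing notes, and the counting program, annotation and use of strand are not given in the sources used here. filterByExpr kept 17736 genes, which held at least 99.9% of any library's counts. edgeR 4.0.16 in R 4.3.3 gave two-sided quasi-likelihood F tests from TMM-normalized counts, in 1 fit of 16 libraries with 4 group means. The Benjamini-Hochberg adjustment covered all genes, with a threshold of 0.05. CPM used TMM-scaled library sizes. Intervals are 95% intervals from that fit.

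Members and lists were chosen with earlier results of these data known. Up to 4 other genes per list were named, by the largest change past the threshold where mean log2 CPM was 0 or more, and lists of 5 or fewer genes could be named in full. Tmem173, the gene of STING, was named after its values were seen. Results of a few genes of the lists and neighbours are not reported here. On counts simulated for the tau effect in Ch25h+/+ (17736 genes), 75% of log2 changes of 1 and 92% of changes of 2 were recovered, with 8 false calls. Changes smaller than 1 and the rRNA class were not simulated, so these shares do not extend to the small changes of most members. The alternatives used other size factors (relative log expression), no filter on low counts, a minimum mean of 50 counts, DESeq2 1.42.0, limma-voom with quality weights (limma 3.58.1), only the 8 libraries compared, a term for rRNA class (over 1000 CPM on total counts) or for a choroid plexus score, and the omission of each library. Fits of rRNA-poor or rRNA-rich libraries alone, and all alternatives for the pathway lists, were added after seeing the data. Positions and lengths are from GENCODE (GRCm38). Depth was 15530352 to 25602500 counts per library, and detection limits cover counting error only.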

Additional observations from a re-analysis of the deposited data

Results flagged for a closer look

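In 36 sets of 4 libraries (9 genes in 4 groups), 4 libraries stood apart from the other 3 of their group by Dixon's 95% criterion, and chance alone marks about 1 in 20 sets. Irf7 read 6.1 CPM in Ch25h-/- Tau+ replicate 2 against 2.12 to 2.77 in the others. That library also had the highest sum of microglia markers in its group, 359 CPM, and the part of these markers was not tested. Irf7 read 2.65 CPM in Ch25h-/- Tau- replicate 1 against 1.65 to 1.78. Irf9 read 16.1 CPM in Ch25h-/- Tau+ replicate 1 against 11.6 to 11.9, in the rRNA-poor library of that genotype. Irf3 read 20.5 CPM in Ch25h+/+ Tau+ replicate 4 against 24.1 to 24.7. The tau effect differed between the Ch25h genotypes by the interaction test for 2 other genes of the pathway lists and for 1 microglia marker. Cd74 had an interaction of -3.41 and H2-D1 of -0.84 (log2), and both calls were lost with a term for library class, at -3.17 and -0.82. C1qa had an interaction of -1.26, and the count of microglia markers past the threshold fell to 0 in some fits that left out 1 library. Cd74 kept its call in 3 and H2-D1 in 13 of the 16 fits that left out 1 library.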

How the results depend on the processing

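Of 1098 values of single members under the alternatives, 0 called values changed direction, 34 lost their call, 4 gained one and 1060 stayed on the same side of the threshold. Of these 1060, 26 were uncalled values whose sign changed. The tau effect in Ch25h+/+ gave 2 members instead of 1 with DESeq2 and 2 with limma-voom. Ch25h loss in Tau+ gave 1 member instead of 4 with no filter beyond 1 count (Irf7), 0 with only the 8 libraries, 0 with a term for library class and 0 with the rRNA-poor libraries only. Both of these rest on 1 Ch25h-/- library, assumed to vary like the rest. In the last fit the values were -0.42 for Ifnar2, -0.32 for Ifngr1, -0.62 for Irf1 and -1.42 for Irf7. The cause of these changes was not tested beyond the fewer libraries fitted.

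Over all genes, the tau effect in Ch25h+/+ called 277 genes, 424 with DESeq2 and 498 with limma-voom. The tau effect in Ch25h-/- called 7, and 28 with no filter, 2 at a mean of at least 50 counts and 14 with DESeq2. Ch25h loss in Tau- called 182, and 522 with no filter, 967 with DESeq2, 1388 with limma-voom, 1229 with only the 8 libraries and 0 with a term for library class. Ch25h loss in Tau+ called 629, and 1397 with DESeq2, 1883 with limma-voom, 106 with only the 8 libraries, 10 with a term for library class and 3 with the rRNA-poor libraries only. The interaction called 6, and 57 with no filter, 55 with DESeq2, 3 with a term for library class and 11 with the choroid plexus score.

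Leaving out single libraries, members past the threshold numbered 1 to 2 for tau in Ch25h+/+, 0 to 4 for Ch25h loss in Tau+ and 0 for the other comparisons. All genes past it numbered 160 to 299 for tau in Ch25h+/+, 6 to 13 for tau in Ch25h-/-, 3 to 1306 for Ch25h loss in Tau-, 108 to 1691 for Ch25h loss in Tau+ and 0 to 22 for the interaction. No paired analysis was possible because replicate numbers were given in accession order and the labels tie no libraries together. With 4 libraries per group, the intervals given for small differences cover the spread between libraries and not the choice of processing or the rRNA class. For Ch25h loss in Tau+ the alternatives gave -0.12 to 0.34 for Irf3, beyond its interval of -0.39 to 0.28. Those of Ifnar1 (-0.03 to 0.11) and Ifngr2 (-0.14 to 0.09) stayed inside their intervals.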

Other observations

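Ifnar2, Il10rb, Ifnar1 and Ifngr2 lie side by side on the plus strand of chromosome 16 (GRCm38), within 193 kb that hold 5 protein-coding genes. Il10rb (91406164 to 91425834), which encodes a receptor chain shared by interferon lambda and interleukin-10 family receptors, lies directly after Ifnar2. With Ch25h loss in Tau+, Ifnar2 fell by 0.42 on the log2 scale and passed the edgeR test, while Il10rb (-0.06), Ifnar1 (0.03) and Ifngr2 (0.03) did not pass. With tau in Ch25h+/+ the values were 0.29 for Ifnar2, 0.39 for Il10rb, -0.03 for Ifnar1 and 0.04 for Ifngr2, and none passed. Differences between these neighbours were not tested.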
